A study of Mus musculus with 14 samples.

Results

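The genes described here are 9 channels, pumps and regulators that move calcium across the membranes of the endoplasmic reticulum (ER) and of mitochondria: Itpr1, Atp2a2, Mcu, Smdt1, Micu2, Vdac1, Vdac2, Vdac3 and Letm1. They were taken by gene symbol from both count tables, and all 9 were among the 16196 genes held by both, out of 18507 genes in either. RNA was sequenced from mouse oocytes of 4 groups. GV oocytes, which still hold the germinal vesicle and are arrested in meiotic prophase, gave 4 WT libraries from Mff fl/fl mice and 4 CKO libraries from Mff fl/fl; Gdf9-Cre mice. Ovulated oocytes gave 3 WT and 3 CKO libraries of the same genotypes. All groups therefore carry the floxed Mff allele, and they differ in the Gdf9-Cre transgene, whose promoter is active in oocytes. Mff encodes a mitochondrial outer membrane receptor for the fission dynamin DRP1. The labels call the samples single-cell samples; they name no age, strain, hormone treatment or count of animals or oocytes behind a library. P-values thus reflect the spread between libraries only, which may be technical.

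An egg keeps its calcium store in the ER. At fertilisation, inositol trisphosphate opens the receptor ITPR1, calcium leaves the ER in repeated waves, and the SERCA pump encoded by Atp2a2 refills the store. Mitochondria take up part of each wave: calcium crosses the outer membrane through the voltage-dependent anion channels VDAC1, VDAC2 and VDAC3 and the inner membrane through the uniporter, whose pore is MCU. The small protein EMRE (Smdt1) is needed for the pore to conduct and ties it to the gatekeepers, of which MICU2 is one, and LETM1 is an inner membrane protein of cation and proton exchange.

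Transcription is silent between the fully grown GV oocyte and the ovulated egg, and maternal transcripts are kept, tailed or lost according to signals near their 3′ ends. The 3′ ends of the members are shown for that reason. The 9 transcripts, taken from GENCODE vM21 on GRCm38 (the assembly that mm10 names), ran from 705 bases for Smdt1 to 9870 bases for Itpr1. In their last 150 bases all 9 held the polyadenylation signal AATAAA or ATTAAA on the sense strand, as did 83.2% of 13845 genes with a 3′ UTR at least that long. The letters TTTTAT or TTTTAAT, a form of the cytoplasmic polyadenylation element, stood in the same window of 2 of 9 members, Atp2a2 and Letm1, and of 25.1% of those genes. Below are those 2 sites and, for the members that carry the genotype result, the site of the polyadenylation signal. Each lies in the last exon, in the 3′ UTR, and is written 5′ to 3′ with the motif in capitals.
Atp2a2, element at chr5:122456412-122456441, minus strand: atgtctaatgtaTTTTATtgtaacagacat
Letm1, element at chr5:33739792-33739821, minus strand: gctacagccctgTTTTATagaagctgacaa
Vdac3, signal at chr8:22577095-22577124, minus strand: gcatcagagtaaAATAAAcccatcacattt
Vdac2, signal at chr14:21845841-21845870, plus strand: ctttgagattacAATAAAatacaaggatac
Smdt1, signal at chr15:82349031-82349060, plus strand: ttaggagtgtatAATAAAtgagtcatgtat
The element of Atp2a2 began 90 bases and that of Letm1 137 bases before the annotated end of the GENCODE transcript used. In RefSeq the Atp2a2 gene runs on to chr5:122453513, past that end, and other ends were not examined. A match describes the letters only, and no match in this window says nothing of a factor.

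Per library, 26575593 to 28847424 estimated counts were assigned to genes. Mff itself stood at 304 to 945 CPM (counts scaled to a common library size, with the trimmed mean of M values method, TMM, over the 14 libraries) in WT libraries and at 30.1 to 54.4 CPM in CKO libraries. Oocyte markers summed to 25820 to 35510 CPM in GV libraries. In ovulated libraries the sum was 17620 to 21800 CPM in WT and 20160 to 22580 CPM in CKO. Of these markers, Figla stood at 0.450 to 0.989 CPM in ovulated WT and 8.84 to 27.2 CPM in ovulated CKO. Zp2 stood at 101 to 163 CPM and 609 to 1151 CPM. Zp1, Zp3, Ooep, Npm2 and Bmp15 were also higher in every ovulated CKO than every ovulated WT library. Mos was lower in every ovulated CKO library (606.7 to 876.5 CPM, against 882 to 1252 CPM), and the other oocyte markers overlapped. The 18 granulosa and cumulus markers listed, of which 16 were in the GV and 12 in the ovulated table, summed to 44.3 to 97.2 CPM in GV libraries, 106 to 117 CPM in ovulated WT and 87.1 to 108 CPM in ovulated CKO libraries, and most of that was Cyp19a1. Of the 12 in the ovulated table, Cyp19a1 (52.9 to 91.6 CPM), Nr5a2 (10.1 to 17.8 CPM), Kitl (7.42 to 14.6 CPM) and Col4a1 (3.93 to 8.44 CPM) were present in all ovulated libraries, and the other 8 reached at most 1.395 CPM. Fshr reached at most 0.335 CPM and Gja1 at most 0.110 CPM there. The 11 blood, immune and stromal markers, of which 7 were in the ovulated table, summed to 23.1 to 44.8 CPM in GV libraries, 84.3 to 139 CPM in ovulated WT and 55.0 to 105 CPM in ovulated CKO libraries, most of it Pecam1. Both of these sums thus moved with stage. GV WT 2, GV CKO 1 and GV CKO 2 stood apart from the other GV libraries. Their 100 highest genes took 35.2 to 42.4% of counts, against 48.2 to 51.1%. Among ovulated libraries this share was 29.5 to 35.4% in WT and 24.99 to 30.5% in CKO. The part of these measures in the results was not tested, except where values without such libraries, or with the share as a covariate, are given.

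In GV WT oocytes the outer membrane channels led the members. Compared per transcript length, in the deposited FPKM (fragments normalised to transcript length and to all mapped fragments), Vdac3 stood at 370 ± 24.2 FPKM (SD, n = 4) and Vdac2 at 172 ± 55.6 FPKM. Mcu, Atp2a2 and Smdt1 followed at 36.7, 29.5 and 28.0 FPKM with overlapping ranges. Micu2 and Vdac1 stood at 11.8 and 10.6 FPKM, and Itpr1 and Letm1 were lowest at 2.36 and 2.24 FPKM, each pair with overlapping ranges. GV CKO oocytes had the same leading pair, with Vdac3 at 443 ± 75.5 FPKM and Vdac2 at 129 ± 50.2 FPKM.

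After ovulation the order was another one. In ovulated WT oocytes Atp2a2 (127 ± 45.3 FPKM, SD, n = 3), Mcu (116 ± 33.5 FPKM) and Vdac2 (95.3 ± 19.1 FPKM) overlapped at the top, and Vdac3 came next at 38.1 ± 1.94 FPKM. In ovulated CKO oocytes Atp2a2 led at 182 ± 5.94 FPKM, apart from all others. Vdac3 followed at 110 ± 55.6 FPKM, with Smdt1 (86.4 ± 55.8 FPKM) and Mcu (84.0 ± 11.4 FPKM) next to it, while Vdac2 was behind them at 44.5 ± 9.92 FPKM. Letm1 had the lowest mean in all 4 groups.

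**Figure D1:**
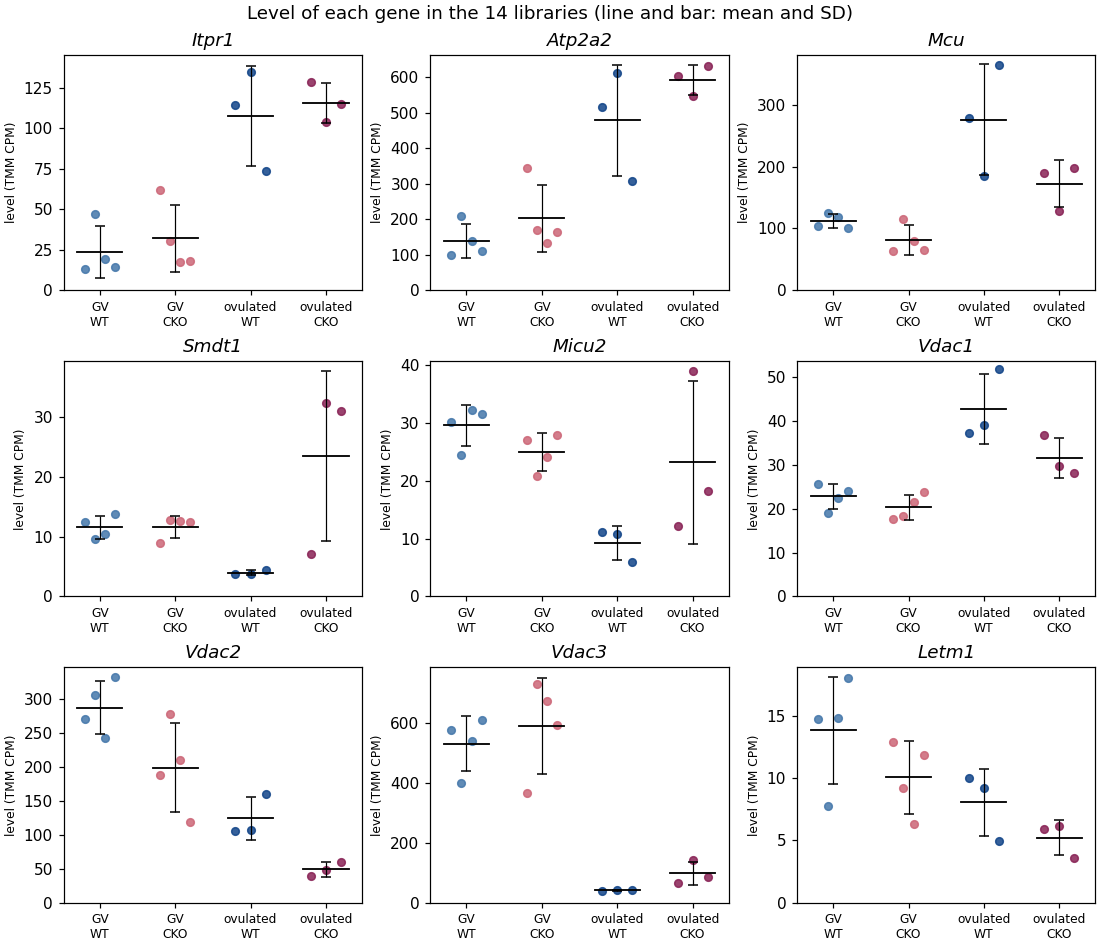
TMM CPM of each of the 9 genes (vertical axis, linear from 0) in the 14 libraries, by group (horizontal axis: GV WT, GV CKO, ovulated WT, ovulated CKO); points are libraries in replicate order, the line is the mean and the bar the SD. Itpr1, Atp2a2, Mcu and Vdac1 sit higher in ovulated than in GV libraries, Vdac2 and Vdac3 lower, and Smdt1 and Micu2 are lowest in ovulated WT and spread out in ovulated CKO.

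Genotype was compared within each stage, to ask whether these transcripts differed with the loss of Mff. In GV oocytes none of the 9 members passed the test (edgeR quasi-likelihood test, adjusted p under 0.05 over 12298 genes), and 2 genes in all did, 0.0163% of those tested. DESeq2 called no member either (56 of 16061 genes called). At an unadjusted p under 0.05 there were 2 members, Mcu and Vdac2, beside 819 genes in all. In ovulated oocytes 2 members were higher in CKO, Smdt1 and Vdac3, where 6.44% of 12010 genes were called higher, and 1 was lower, Vdac2, where 1.4% of genes were called lower. Over all genes 942 were called. The member count fell to 0 with the share of the 100 highest genes as a covariate, where 130 of 12010 genes were called. It was also 0 without ovulated WT 3 and ovulated CKO 2 (235 of 12076 genes called). On log2(FPKM + 1) without a filter it was 0 as well (13 of 16488 genes called).

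From GV to ovulated oocytes most members changed in both genotypes, as did most genes. In WT, 4 of 9 members were called higher, where 30.3% of 13199 genes were, and 4 lower, where 36.2% were. In CKO, 5 were called higher, against 23.2% of genes, and 3 lower, against 31.2%. Without GV WT 2, GV CKO 1 and GV CKO 2 the CKO count was 5 in place of 8. Over all genes 7018 of 13317 were then called, in place of 7183 of 13199. A stage change here is relative to the library size as scaled by TMM, and "rose" and "fell" name such relative changes. Poly(A) tail length was not measured. Total RNA per oocyte was not measured, and fewer cells and less RNA per cell cannot be told apart. Genotype effects that differed between the stages were called for 1 member, Smdt1, as a higher value, where 3.17% of genes were called higher. The stage comparisons share libraries with the genotype comparisons, so their values are set side by side and not as separate evidence.

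**Figure D2:**
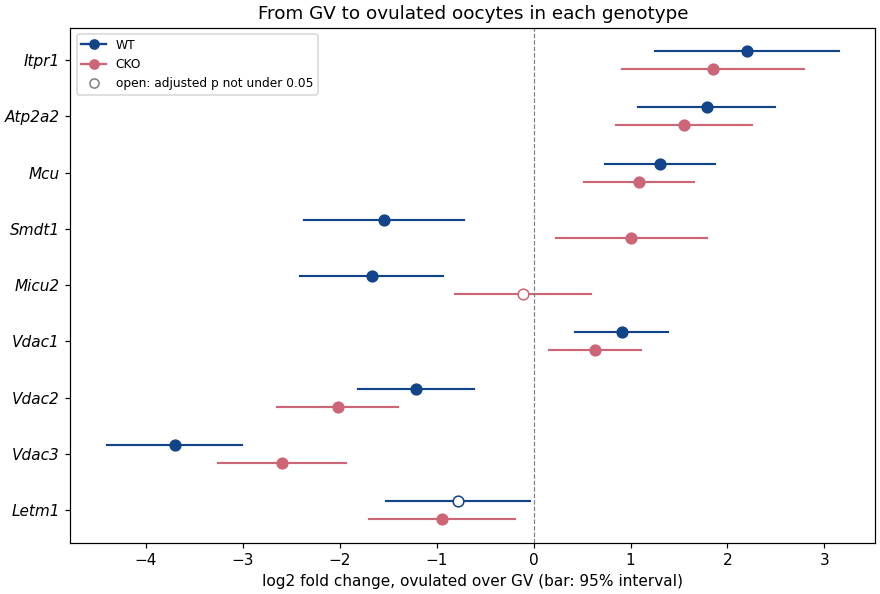
log2 fold change of ovulated over GV oocytes (horizontal axis) for the 9 genes (vertical axis) in WT and in CKO; the bar is the 95% interval, and filled points have an adjusted p under 0.05 (edgeR). Itpr1, Atp2a2, Mcu and Vdac1 lie right of 0 in both genotypes, Vdac2, Vdac3 and Letm1 left of it, and Smdt1 lies on opposite sides.

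**Figure D3:**
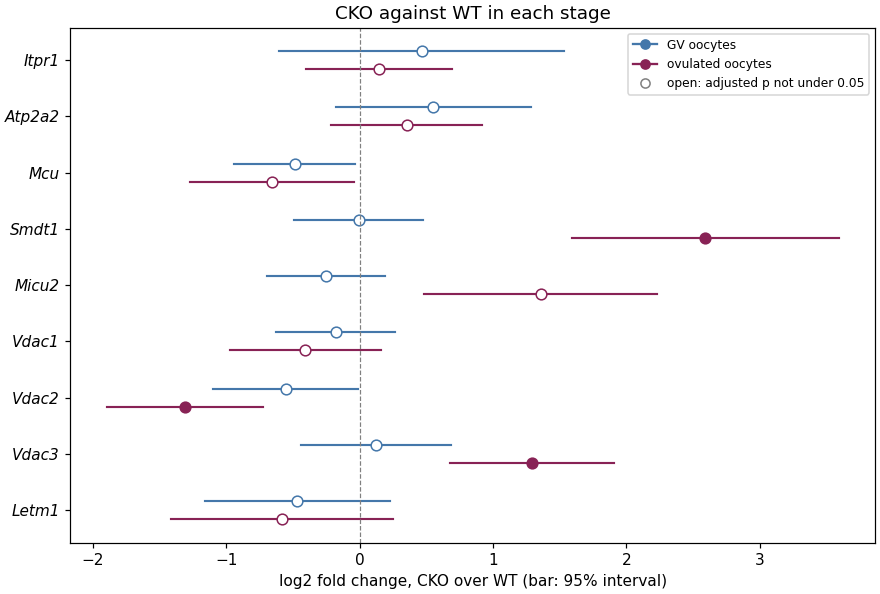
log2 fold change of CKO over WT (horizontal axis) for the 9 genes (vertical axis) in GV and in ovulated oocytes; the bar is the 95% interval, and filled points have an adjusted p under 0.05 (edgeR). No point is filled for GV oocytes, and Smdt1, Vdac3 and Vdac2 are filled for ovulated oocytes.

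Itpr1, the ER release channel, rose after the GV stage in both genotypes. In GV WT libraries it stood at 13.0, 47.0, 19.3 and 14.3 CPM (replicates 1 to 4) and in ovulated WT libraries at 115, 135 and 73.9 CPM. The groups did not overlap, although GV WT 2 was well above the other GV WT libraries. GV CKO libraries held 62.0, 30.7, 17.5 and 17.8 CPM, with CKO 1 highest, and ovulated CKO libraries 129, 104 and 115 CPM. The change was 4.595-fold in WT (log2 2.20 ± 0.45 SE, adjusted p = 0.000346, edgeR) and 3.61-fold in CKO (log2 1.85 ± 0.45, adjusted p = 0.00205). Without GV WT 2 the WT change was log2 2.79. The genotypes overlapped at both stages: the CKO over WT log2 difference was 0.46 in GV oocytes, with a 95% interval of -0.60 to 1.53, and 0.14 in ovulated oocytes, with an interval of -0.41 to 0.69. In the GV stage the sign turned to -0.15 without GV CKO 1, and in the ovulated stage to -0.06 without ovulated WT 3.

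The pump gene Atp2a2 followed the same course at a higher level. Its GV WT libraries held 99.6, 208, 137 and 110 CPM and its ovulated WT libraries 515, 612 and 307 CPM. GV CKO libraries held 343, 168, 134 and 164 CPM and ovulated CKO libraries 602, 547 and 630 CPM. Ovulated libraries were above all GV libraries in each genotype, and GV CKO 1 was again the highest GV library. The rise was 3.45-fold in WT (log2 1.79 ± 0.34, adjusted p = 0.000157, edgeR) and 2.93-fold in CKO (log2 1.55 ± 0.34, adjusted p = 0.000857). CKO over WT was log2 0.55 in GV oocytes (interval -0.18 to 1.28) and 0.35 in ovulated oocytes (interval -0.22 to 0.92), and neither passed the test. The GV value was 0.12 without GV CKO 1 and 0.83 without GV WT 2. The ratio of Atp2a2 to Itpr1 in FPKM was 15.1 ± 3.51 in GV WT, 15.6 ± 4.07 in GV CKO, 9.80 ± 0.45 in ovulated WT and 11.5 ± 0.94 in ovulated CKO.

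Other ER genes put these members in context. Of 9 tested genes of ER calcium release, Itpr1 included, 5 rose and 2 fell in WT, and 3 rose and 1 fell in CKO. Of all genes, 30.3% rose and 36.2% fell in WT, and 23.2% rose and 31.2% fell in CKO. The list's median log2 change was 1.06 in WT and 0.56 in CKO, where the median of all genes was -0.17 and -0.19. In the longest of 5 equal length classes of all genes the medians were 0.93 and 0.67. Neither this list nor those below were set against genes of like length. Itpr2, the second receptor isoform, rose by log2 1.06 ± 0.24 in WT (adjusted p = 0.00081, edgeR) and 0.91 ± 0.24 in CKO (adjusted p = 0.00359). Per length its transcript stood above that of Itpr1 in each group mean: 11.3 ± 1.54 FPKM in GV WT and 31.9 ± 4.54 FPKM in ovulated WT, while Itpr1 stood at 2.36 ± 2.31 and 12.8 ± 4.14 FPKM. Their ranges did not overlap in any of the 4 groups. Itpr3 was at or below 0.35 FPKM in all libraries. Itprid2, which encodes a protein named for its interaction with the receptors, rose by log2 2.96 ± 0.40 in WT, and Ryr3, a ryanodine receptor, fell by 1.67 on the log2 scale from 3.73 CPM.

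Pumps behaved in a mixed way. Of 6 tested calcium pump genes, Atp2a2 included, 4 rose and 2 fell in WT, and 4 rose and 1 fell in CKO. These counts are to be read against the shares of all genes just given (30.3% and 36.2% in WT, 23.2% and 31.2% in CKO). The median log2 change of the pump genes was 1.46 in WT and 0.98 in CKO, against -0.17 and -0.19 for all genes. Those that rose beside Atp2a2 were the plasma membrane pumps Atp2b1 (log2 1.73 ± 0.29 in WT and 1.15 ± 0.29 in CKO) and Atp2b4 and the Golgi pump Atp2c1 (log2 1.19 ± 0.21 and 0.81 ± 0.21). Atp2c2 fell in both genotypes. Of 8 tested genes of ER calcium buffers and chaperones, 2 rose and 4 fell in WT, and 1 rose and 2 fell in CKO, with medians of -0.78 and -0.43. Calr, the store's calreticulin, stood at 167 ± 47.3 CPM in GV WT and 41.2 ± 8.51 CPM in ovulated WT (log2 -2.02 ± 0.35, adjusted p = 7.22e-05). Calu fell by 2.31 on the log2 scale and Rcn2 rose by 1.52. Of 9 tested genes of plasma membrane entry and store refilling, 1 rose and 1 fell in WT and 2 rose and 1 fell in CKO, with medians of 0.19 and 0.24. Orai1, the store-operated channel, stood at 20.9 ± 5.55 CPM in GV WT and at 0.389 ± 0.351 CPM in ovulated WT, with 1 library at 0. In CKO it stood at 22.9 ± 7.54 CPM and 2.84 ± 2.50 CPM. No gene of the release, pump or entry lists passed the genotype test at either stage.

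Mcu, the pore of the uniporter, rose after the GV stage. GV WT libraries held 104, 126, 118 and 101 CPM and ovulated WT libraries 279, 185 and 364 CPM. The GV CKO libraries were at 63.0, 115, 80.2 and 65.5 CPM and ovulated CKO libraries 190, 128 and 198 CPM. Ovulated libraries were above GV libraries in each genotype, by a narrow margin in CKO. The rise was 2.47-fold in WT (log2 1.30 ± 0.27, adjusted p = 0.000406, edgeR) and 2.13-fold in CKO (log2 1.09 ± 0.27, adjusted p = 0.00266). CKO over WT was log2 -0.49 ± 0.21 in GV oocytes (adjusted p = 0.732) and -0.66 ± 0.29 in ovulated oocytes (adjusted p = 0.183), and the genotypes overlapped at both stages.

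Smdt1, which encodes the conducting partner EMRE, went the other way in WT, and its fitted ovulated genotype difference was the largest of the 9, though not with length and GC trends removed (log2 1.22, against 1.39 for Micu2 and -1.34 for Vdac2). GV WT libraries held 12.4, 9.52, 10.5 and 13.9 CPM and GV CKO libraries 8.92, 12.8, 12.6 and 12.4 CPM. The GV genotypes overlapped, and CKO over WT was log2 -0.01, with an interval of -0.49 to 0.48. Ovulated WT libraries held 3.70, 3.78 and 4.45 CPM and ovulated CKO libraries 7.13, 32.3 and 30.9 CPM. Every ovulated CKO library was above every ovulated WT library, but CKO 1 was far below the other two. The ovulated difference was 6.03-fold (log2 2.59 ± 0.47, adjusted p = 0.00371, edgeR). It was log2 2.50 with the share of the 100 highest genes as a covariate (adjusted p = 0.0752) and 2.40 without ovulated WT 3 and CKO 2 (adjusted p = 0.11).

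Across stages Smdt1 fell 2.91-fold in WT (log2 -1.54 ± 0.39, adjusted p = 0.00226, edgeR) and was called higher in CKO (log2 1.01 ± 0.37, adjusted p = 0.0282). The difference between these courses, the same as that between the 2 genotype effects, was log2 2.55 ± 0.54 (adjusted p = 0.0163). The rise in CKO did not pass without GV CKO 1 (adjusted p = 0.0642), ovulated CKO 2 (0.149) or ovulated CKO 3 (0.141), and the difference between courses did not pass without ovulated CKO 2 (0.0591). At 705 bases the Smdt1 transcript was among the shortest, with 2.6% of genes shorter. With the trends of change on transcript length and GC content removed, its WT course turned to log2 0.78 (adjusted p = 0.022), its ovulated genotype difference was 1.22 (adjusted p = 0.0463) and the difference between courses was 1.03 (adjusted p = 0.19).

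Micu2, a gatekeeper of the uniporter, fell in WT from 30.1, 24.4, 32.2 and 31.4 CPM to 11.2, 10.7 and 5.91 CPM, a 3.18-fold change (log2 -1.67 ± 0.35, adjusted p = 0.00042, edgeR). In GV CKO libraries it was at 27.0, 20.8, 24.1 and 27.9 CPM and ovulated CKO libraries 12.2, 39.0 and 18.3 CPM. The CKO stages overlapped, with ovulated CKO 2 highest and the other two below all GV CKO libraries; the log2 change was -0.11 (adjusted p = 0.802). In ovulated oocytes CKO over WT was log2 1.36 ± 0.41, which missed the threshold (adjusted p = 0.0564). It passed without ovulated CKO 1 (adjusted p = 0.014), with DESeq2 (0.016) and in 1 fit over all groups (0.0229), and the value was 0.76 without ovulated CKO 2.

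These courses changed the ratios between uniporter transcripts. The Smdt1 to Mcu ratio in FPKM was 0.818 ± 0.224 in GV WT and 1.15 ± 0.27 in GV CKO. In ovulated WT libraries it was 0.0929, 0.145 and 0.0906, and in ovulated CKO libraries 0.262, 1.83 and 1.16. The ovulated groups did not overlap, and all ovulated WT libraries were below all GV WT libraries. The Micu2 to Mcu ratio was 0.341 ± 0.066 in GV WT, 0.424 ± 0.151 in GV CKO, 0.0482 ± 0.0264 in ovulated WT and 0.195 ± 0.166 in ovulated CKO. Ratios of transcripts carry no test here and do not give the ratios of proteins.

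Other genes of the uniporter complex and of matrix transport changed in both directions with stage: of 15 tested genes, members included, 6 rose and 5 fell in WT, and 7 rose and 2 fell in CKO. The shares of all genes were 30.3% and 36.2% in WT and 23.2% and 31.2% in CKO, and the list's median was 0.39 in WT and 0.66 in CKO. Micu3, another gatekeeper, rose by log2 2.15 ± 0.38 in WT (adjusted p = 8.23e-05, edgeR) and 1.32 ± 0.37 in CKO (adjusted p = 0.00642). Mcub, the paralog that lowers conductance of the pore, fell by 1.59 on the log2 scale in WT (adjusted p = 0.0201), but its GV WT libraries ran from 15.0 to 223 CPM. Letm2 fell in both genotypes. Between ovulated genotypes, 2 of the 15 were higher in CKO, where 6.44% of all genes were, Smdt1 and Slc25a23, a calcium-regulated carrier at 1.28 ± 0.56 CPM in WT and 4.42 ± 1.53 CPM in CKO (log2 1.81 ± 0.51, adjusted p = 0.041).

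Vdac3 was the most abundant member in GV oocytes and fell most after them. GV WT libraries held 579, 399, 539 and 610 CPM and ovulated WT libraries 38.9, 42.7 and 41.2 CPM. For CKO, GV libraries held 367, 730, 675 and 592 CPM and ovulated CKO libraries 67.3, 142 and 84.4 CPM. Stages were far apart in each genotype, GV genotypes overlapped, and every ovulated CKO library was above every ovulated WT library. The fall was 13.0-fold in WT (log2 -3.70 ± 0.33, adjusted p = 7.161e-08, edgeR) and 6.04-fold in CKO (log2 -2.59 ± 0.31, adjusted p = 4.104e-06). CKO over WT in ovulated oocytes was 2.45-fold (log2 1.29 ± 0.29, adjusted p = 0.0126). That call was lost without ovulated CKO 2 (adjusted p = 0.0789) or ovulated WT 1 (0.0547), and with the share of the 100 highest genes as a covariate the value was 0.99 (adjusted p = 0.201). In GV oocytes the log2 difference was 0.12, with an interval of -0.44 to 0.69. The difference between the genotype effects, log2 1.11 ± 0.41, did not pass (adjusted p = 0.17).

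Vdac2, whose protein also holds the cell death protein BAK at the outer membrane, fell in both genotypes and was lower in ovulated CKO oocytes. GV WT libraries held 269, 305, 243 and 331 CPM and ovulated WT libraries 105, 107 and 160 CPM. In CKO, GV libraries held 188, 277, 209 and 119 CPM and ovulated CKO libraries 38.6, 48.1 and 60.1 CPM. Ovulated CKO libraries were below all others, and the GV genotypes overlapped. The fall was 2.32-fold in WT (log2 -1.21 ± 0.29, adjusted p = 0.00115, edgeR) and 4.06-fold in CKO (log2 -2.02 ± 0.30, adjusted p = 2.677e-05). CKO over WT in ovulated oocytes was log2 -1.31 ± 0.27 (adjusted p = 0.00869), a 2.48-fold lower level, and it passed without each ovulated library in turn. It was -1.03 with the share of the 100 highest genes as a covariate (adjusted p = 0.134) and -1.05 without both ovulated WT 3 and CKO 2 (adjusted p = 0.086). In GV oocytes it was -0.56 ± 0.25 (adjusted p = 0.74), and the genotype effects of the stages were not shown to differ (log2 -0.81 ± 0.39, adjusted p = 0.333). With length and GC trends removed, the WT fall of Vdac2 was log2 -0.14 (adjusted p = 0.671).

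Vdac1, the lowest of the family in GV oocytes, rose. GV WT libraries held 25.6, 19.0, 22.4 and 24.2 CPM and ovulated WT libraries 37.4, 39.1 and 51.9 CPM, a 1.88-fold change (log2 0.91 ± 0.23, adjusted p = 0.00189, edgeR). GV CKO libraries held 17.7, 18.4, 21.5 and 23.8 CPM and ovulated CKO libraries 36.8, 29.8 and 28.1 CPM, a 1.55-fold change (log2 0.63 ± 0.23, adjusted p = 0.0252). The CKO rise did not pass without GV CKO 2 (adjusted p = 0.0528) or ovulated CKO 1 (0.101). CKO over WT was log2 -0.41 in ovulated oocytes (interval -0.98 to 0.16) and -0.18 in GV oocytes (interval -0.63 to 0.26).

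The family therefore had another make-up in each ovulated genotype. Of the summed FPKM of the 3 genes, Vdac3 made 70.6, 60.1, 71.4 and 67.8% in GV WT libraries and 68.5, 75.1, 78.2 and 83.8% in GV CKO libraries. In ovulated WT it made 25.7, 27.1 and 19.8%, and Vdac2 57.9, 56.4 and 63.8%. In ovulated CKO the Vdac3 share was 54.3, 70.3 and 55.2% and the Vdac2 share 25.9, 19.9 and 32.7%. Vdac2 thus led in all 3 ovulated WT libraries and Vdac3 in all 3 ovulated CKO libraries. The Vdac1 share went from 1.92 ± 0.13% in GV WT to 16.5 ± 0.03% in ovulated WT, and from 1.82 ± 0.47% to 13.9 ± 5.21% in CKO. The summed FPKM was 160 ± 21.0 in ovulated WT, 177 ± 61.7 in ovulated CKO, 553 ± 78.5 in GV WT and 583 ± 109 in GV CKO. FPKM carries no TMM scaling. Between ovulated genotypes the median over all genes was log2 0.15 on log2(FPKM + 1), against -0.001 in the edgeR fit. The sums are therefore not compared between groups. The sources used here do not give how reads shared between the family and its processed copies were counted, so the shares carry that uncertainty.

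**Figure D4:**
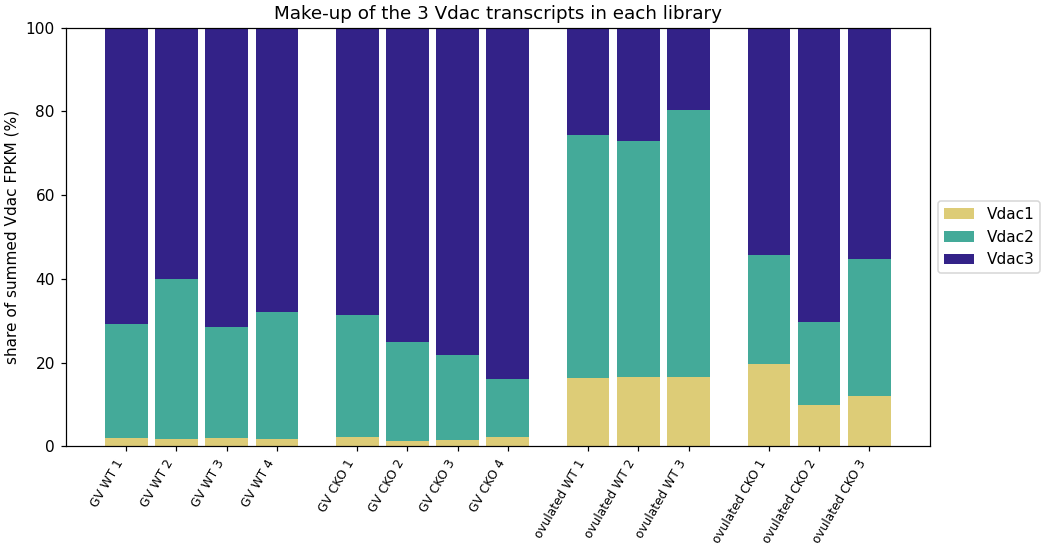
Share of Vdac1, Vdac2 and Vdac3 in their summed FPKM (vertical axis, percent) in each of the 14 libraries (horizontal axis). Vdac3 fills most of the bar in the 8 GV libraries and in the 3 ovulated CKO libraries, and Vdac2 fills most of it in the 3 ovulated WT libraries.

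Letm1 had the lowest mean FPKM of the members in each group. In GV WT, though, its median of 2.265 FPKM was above the 1.35 FPKM of Itpr1, whose mean GV WT 2 raised (5.8 FPKM). In CPM, which is not per length, the mean of Smdt1 was lower than that of Letm1 in GV WT and ovulated WT. GV WT libraries held 14.7, 7.79, 14.8 and 17.98 CPM and ovulated WT libraries 10.0, 9.16 and 4.95 CPM, which overlapped (log2 -0.78 ± 0.36, adjusted p = 0.0607, edgeR). Without GV WT 2 the WT change passed (log2 -0.98, adjusted p = 0.0193), and it also passed with length and GC trends removed. GV CKO libraries held 12.9, 9.20, 6.35 and 11.8 CPM and ovulated CKO libraries 5.90, 6.17 and 3.60 CPM (log2 -0.95 ± 0.36, adjusted p = 0.0325). That call was lost without GV CKO 1 (adjusted p = 0.074), GV CKO 4 (0.0718) or ovulated CKO 3 (0.136). It was also lost with RLE size factors in edgeR (0.0569), with no filter and with the replicate block, but not with DESeq2. CKO over WT was log2 -0.47 in GV oocytes (interval -1.16 to 0.22) and -0.58 in ovulated oocytes (interval -1.41 to 0.25).

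Stage change went with transcript length across all genes. In WT the median log2 change was -1.67 in the shortest of 5 equal length classes and 0.93 in the longest, and in CKO it was -1.07 and 0.67. The members were spread along this trend. Itpr1 and Atp2a2 (4486 bases) are long and rose, Vdac3 (1354 bases) is short and fell. Mcu (2872 bases) and Vdac1 (2022 bases) stood above the median of their length classes in both genotypes, and Letm1 (5272 bases) stood below that of its own. Smdt1 stood near the median of its class in WT and above it in CKO. That class runs from 132 to 1669 bases, and only 2.6% of genes are shorter than Smdt1. With length and GC trends removed, its WT course was log2 0.78 (adjusted p = 0.022, edgeR). The ovulated genotype difference ran with length too: its median over all genes was log2 0.43 in the shortest class, which holds Smdt1 and Vdac3, and -0.10 in the longest, and for the difference between courses the medians were 0.35 and -0.25. With the trends removed, CKO over WT in ovulated oocytes was log2 1.22 for Smdt1 and 1.06 for Vdac3 (adjusted p = 0.0365, edgeR). With the trends removed, 5 members were called higher and 3 lower in WT. Of 12864 genes, 4417 were called higher and 3948 lower there. Still past the threshold were the rises of Itpr1 (log2 1.48), Atp2a2 (1.73), Mcu (1.75) and Vdac1 (2.17) and the falls of Vdac3 (-2.54) and Micu2. Smdt1 was then called higher, Letm1 was called lower, and Vdac2 was not called. Genes with TTTTAT or TTTTAAT near the 3′ end had a median change of 0.74 in WT, against -0.37 without, and 0.37 against -0.26 in CKO. Of the 2 members that hold it, Atp2a2 rose in both genotypes. Letm1 was at log2 -0.78 in WT, which did not pass with the trends left in, and at -0.95 in CKO.

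**Figure D5:**
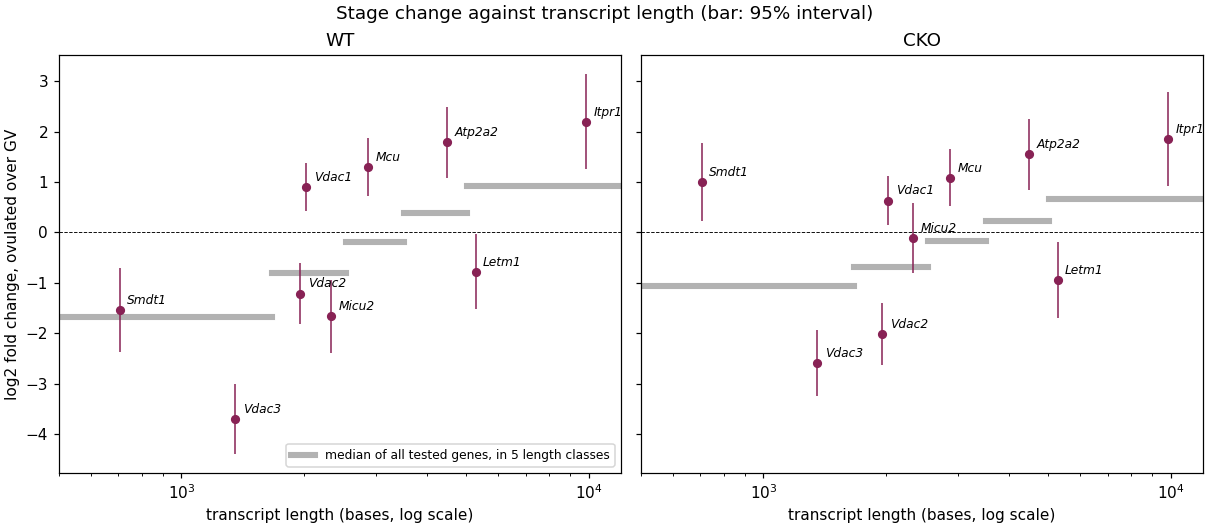
log2 fold change of ovulated over GV oocytes (vertical axis) against transcript length in bases (horizontal axis, log scale) for the 9 genes, in WT (left) and CKO (right); bars are 95% intervals and grey lines the medians of all tested genes in 5 length classes. Smdt1, at 705 bases, lies by the grey line in WT and above it in CKO, and Mcu and Vdac1 lie above it in both.

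Likeness of profiles was measured as the root mean square difference of log2(CPM + 0.5), each gene centred on its mean, over the 14 libraries and 8139 genes with a mean of at least 5 CPM. The nearest genes to Itpr1 were Trip12 (0.102) and Fhod3 (0.114), and to Atp2a2 they were Nin (0.142) and Peg3 (0.151). Vdac3 was nearest to Fbxw15 (0.119) and Dynll1 (0.143), and Vdac1 to Shmt2 (0.134) and Rab18 (0.149). Mcu lay nearest to Snx29 (0.216) and Sirt4 (0.22), and Micu2 to Ephb6 (0.216) and Rims3 (0.218). The other three had no close partner by comparison: Letm1 was nearest to Chd1l (0.29) and Rffl (0.313), Smdt1 to Pfdn5 (0.359) and Cox6a1 (0.368), and Vdac2 to Acd (0.373) and Psg16 (0.39). Among the members themselves, Itpr1 and Atp2a2 differed by 0.345.

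Of the wider pathway, 65 listed genes other than the members were tested between ovulated genotypes: 4 were higher in CKO and 0 lower. Of all genes, 6.44% were called higher and 1.4% lower, so the share called higher was near the background. The median log2 difference was 0.07, against -0.001 for all genes. In GV oocytes 0 of 66 passed. Beside Slc25a23 the 4 were Fis1, Calm2 and Sdf4. Fis1, an outer membrane adaptor of fission and ER contact, had 3.82 ± 0.74 CPM in ovulated WT libraries and 18.3 ± 7.68 CPM in CKO ones (log2 2.29 ± 0.39, adjusted p = 0.00241, edgeR). It was also the 1 gene of these whose genotype effect differed between stages (log2 2.11 ± 0.41, adjusted p = 0.0096). Calm2, one of the calmodulin genes, had 139 ± 50.8 CPM in ovulated WT libraries and 489 ± 162 CPM in CKO ones (log2 1.86 ± 0.32, adjusted p = 0.00275). Sdf4, a calcium-binding protein of the Golgi lumen, differed by log2 1.35 ± 0.36 (adjusted p = 0.0313).

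With stage, 25 of the 66 rose and 20 fell in WT, and 24 rose and 9 fell in CKO; of all genes 30.3% rose and 36.2% fell in WT, and 23.2% and 31.2% in CKO. Of 14 egg activation genes, 6 rose and 3 fell in WT and 7 rose and 1 fell in CKO, with medians of 0.71 and 0.60. Ppp3ca, a calcineurin catalytic subunit, rose by log2 1.955 ± 0.29 and the kinase gene Fyn by 1.94 ± 0.31, while Calm2 fell by 2.91 in WT and 1.41 in CKO. Of 11 genes of ER and mitochondrial contact, 4 rose and 5 fell in WT, and 4 rose and 2 fell in CKO, with medians of -0.17 and 0.12. Fundc1, a mitophagy receptor, rose by log2 1.69 ± 0.26 in WT and 0.99 ± 0.26 in CKO, and Bcap31, an ER membrane protein, fell by 1.504 and 2.00. The median of the 66 was log2 0.35 in WT and 0.31 in CKO, against -0.17 and -0.19 for all genes.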

How the data were processed

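RNA of 14 oocyte libraries was sequenced after SMART-SeqII cDNA synthesis, per the labels' protocols. Per the file headers, the authors deposited estimated counts (headed read counts) without normalisation and FPKM, normalised to length and depth, per gene for each stage. Of count values above 0, 17.6% in GV and 18.3% in ovulated oocytes deviated from a whole number by over 0.001; counts were rounded. The submitters' processing notes name mm10, and the sources used here give no aligner or counter. Genotype was tested within each stage, and stage courses and the interaction in 1 fit of 4 groups on genes in both tables, with edgeR 4.0.16 in R 4.3.3 (filterByExpr, TMM, robust quasi-likelihood F test). P-values were Benjamini-Hochberg adjusted over all genes tested and called under 0.05. SE is the log2 change over the root of F. Alternatives were DESeq2 1.42.0, edgeR with RLE (relative log expression) size factors, and no filter. Others were limma 3.58.1 on log2(FPKM + 1) or (FPKM + 0.1) with genes above a mean of 1 FPKM. Further ones were removal of length and GC trends (96.3% of genes matched), the replicate block, and libraries left out. Scripts were tested on simulated data. Mcub and Itpr3 were named after their values were seen. Members and lists were chosen with earlier results of these data known. Named are all 9 members and, from each list, called genes, at most 3 per direction by smallest p; Fis1, Sdf4, Calm2 and Slc25a23 are the called ones between ovulated genotypes. Symbols are those deposited with the counts, and the printed sites take their coordinates from the GENCODE vM21 transcripts. Of 18507 identifiers, 18456 matched RefSeq genes on GRCm38.p6. Replicates differed by more than counting noise (chi-square per degree of freedom 20.3 to 336). Library totals allow no interval across conditions beyond the spread between libraries.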

Additional observations from a re-analysis of the deposited data

Results flagged for a closer look

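In the GV CKO group, 1 library lay far from the other 3 for 2 of the members. Atp2a2 was highest in GV CKO 1 at 342.7 CPM, and Smdt1 was lowest there at 8.918 CPM. Of 18 groups of 4 libraries examined this way, chance sets about 1 in 20 apart. GV CKO 1 is also the library whose 100 highest genes took the smallest share of counts in the GV stage, 35.2%, and its part in these values was not tested. The genotype effect on Smdt1 differed between the stages by log2 2.548 (adjusted p = 0.01633, edgeR interaction): every ovulated CKO library was above every ovulated WT library, and the GV genotypes overlapped.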

How the results depend on the processing

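The count of members called between ovulated genotypes (3) was 2 to 4 without each library in turn. Over all genes 341 of 12296 to 1652 of 12431 were then called. It was 0 with log2(FPKM + 1) and no filter (13 of 16488 genes called). It was also 0 with the share of the 100 highest genes as a covariate (130 of 12010) and without ovulated WT 3 and CKO 2 (235 of 12076). Without the 3 GV libraries that stand apart, the CKO course had 5 called members in place of 8 (7018 of 13317 genes in place of 7183 of 13199). The interaction then had 0 in place of 1 (229 of 13317 genes in place of 430 of 13199). It also had 0 with length and GC trends removed (276 of 12864) and 0 without ovulated WT 3 and CKO 2 (157 of 13383). With DESeq2 it had 2 (883 of 13672). Without each library in turn it had 0 to 2: 0 without ovulated CKO 2 (129 of 13475) and 2 without ovulated CKO 1 (1006 of 13482). The WT course had 8 or 9 called members under all settings run, though not always the same ones. Most genes were called there too: 8769 of 13199 in the main fit, and 8188 to 9247 over the settings. With length and GC trends removed, 5 members were called higher and 3 lower, in place of 4 and 4. Of 12864 genes, 4417 were then called higher and 3948 lower. There Vdac2 dropped out, Letm1 entered and Smdt1 was called higher in place of lower.

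One called value turned sign: the WT course of Smdt1 (-1.54) was 0.778 with length and GC trends removed. The other values that turned sign had not passed the test. For Smdt1 in GV oocytes (-0.01) the log2 value was 0.0132 in 1 fit over all groups, 0.0004 with RLE size factors, 0.1254 with log2(FPKM + 0.1), 0.1214 with log2(FPKM + 1) with or without the filter, 0.1071 with the top-100 covariate, 0.0126 without the 3 GV libraries, and -0.0748 to 0.0922 without each library. With length and GC trends removed, Vdac3 in GV oocytes was -0.0249 and Micu2 in the CKO course 0.489; Micu2 there was 0.0382 with no filter and -0.72 to 0.19 without each library. Itpr1 was -0.15 to 1.07 in GV oocytes and -0.0581 to 0.31 in ovulated oocytes without each library, and -0.0013 in ovulated oocytes with the covariate. Interaction values without each library were -0.9459 to 0.195 for Itpr1, -0.50 to 0.15 for Atp2a2, -0.43 to 0.13 for Mcu and -0.3325 to 0.0436 for Letm1. Without ovulated WT 3 and CKO 2, Mcu was 0.2868 and Vdac1 0.0129, and without the 3 GV libraries Letm1 was 0.1834. The cause was not tested.

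Over all genes, 942 were called between ovulated genotypes (774 higher, 168 lower), 13 to 1652 over the settings, with 540 higher and 298 lower once length and GC trends were removed. GV calls were 1 to 63 (2 as reported) and interaction calls 129 to 1006 (430). Removing the trends moved the median stage change from -0.17 to 0.09 in WT and from -0.19 to 0.07 in CKO, and RLE size factors moved it to -0.08 in CKO. Correlations of same-numbered deviations were -0.495, 0.29, 0.085 and 0.604 in GV and 0.154, 0.015 and 0.328 in ovulated oocytes. Those of other-numbered libraries ran from -0.718 to 0.694 in GV and from -0.377 to 0.142 in ovulated oocytes. With so few libraries these values do not settle whether replicate numbers pair them. With the replicate block in edgeR, 1630 of 12010 genes and 4 members were called between ovulated genotypes, Micu2 being added (adjusted p = 0.0132). In GV oocytes 2 of 12298 genes and 0 members were called, and for the interaction 262 of 13199 genes and 1 member. The courses had 7 members in CKO (6877 of 13199 genes) and 8 in WT (8576 of 13199 genes).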
